A study of Mus musculus with 6 samples.

Results

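Actb and Tuba1b are the cytoskeletal genes that can be named on this array. They were chosen by probe identity, Tuba1b as the probe CUST_1_PI419532418 (RefSeq NM_011654.2) and Actb as the probe of the same series that carries NM_007393.3, and they make up 2 of the 15 genes named by a RefSeq accession among 60915 probes. Each is printed as 20 spots on every array. RNA came from C2C12, a mouse myoblast line, labelled as myotubes after differentiation in 2% horse serum. The 3 control cultures received no treatment and the 3 CoCl2 cultures received 200 uM cobalt chloride for 48 h, and each culture was read on 1 one-colour array. The study's title asks how the toxicity of CoCl2 relates to long noncoding RNA levels. The labels call the samples independent experiments of a single cell line and give no further source, so p-values measure the spread between these 6 samples. None of the 34 markers listed for myotubes, myoblasts and other cell types is named on the array, so the myotube label was not checked. Of 57 cytoskeletal genes listed, Actb and Tuba1b were the only 2 with a named probe. In RNA from whole cultures, fewer cells that express a gene and less of its RNA per cell cannot be told apart.

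Actb encodes beta-actin, a cytoplasmic actin that polymerises into the filaments behind cell shape, adhesion and movement. In differentiating muscle cells the sarcomeric actins of the contractile apparatus are added to this cytoplasmic pool, and Actb is widely used as a reference gene for quantitative PCR. Tuba1b encodes an alpha-tubulin, which pairs with beta-tubulin to build microtubules, and the microtubules of muscle cells are rearranged along the cell when myoblasts fuse. Tubulin messenger RNA is also destabilised when free tubulin dimers accumulate. Both genes have close relatives (Actg1 for Actb, Tuba1a and Tuba1c for Tuba1b), and Actb has processed pseudogenes. The sequences of the probes were not used here, so how far each probe also reads such copies is uncertain.

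Cobalt ions mimic hypoxia by stabilising hypoxia-inducible factors, whose binding sites hold the core ACGTG or GCGTG. The promoter of Tuba1b is shown because it is the member promoter in the RefSeq table (1 of 2 genes matched, build GRCm38.p6). These are the 250 bases before the start of the gene, chr15:98934391-98934640 on the minus strand, and the capitals mark the core read on either strand.

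Tuba1b: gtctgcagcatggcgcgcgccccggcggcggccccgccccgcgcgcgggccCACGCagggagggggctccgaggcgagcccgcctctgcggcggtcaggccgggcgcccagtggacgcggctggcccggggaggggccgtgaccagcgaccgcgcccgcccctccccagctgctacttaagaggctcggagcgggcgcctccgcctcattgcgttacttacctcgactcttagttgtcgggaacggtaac

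The window held 1 match, GCGTG on the strand opposite to the gene, beginning 199 bases upstream of the start. A match to either core was present in 12679 of 32851 promoter windows of that length (38.6%), so it describes these letters, and binding was not tested. The window was 75.6% G and C.

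Tuba1b RNA was lower in the CoCl2 myotubes on every scale tried, and the size of the difference depended on how the arrays were scaled to each other. With each array shifted by its 75th percentile, the level was 1.37-fold lower after CoCl2 and did not pass the test. With quantile normalization, which gives all arrays the same distribution, it was 1.74-fold lower and passed. Actb was lower as well, by 1.31-fold and 1.5-fold on those scales, and passed in the quantile scale alone.

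The Tuba1b spots were among the brightest on the array. Their mean intensity (geometric, over spots) on control arrays 1, 2 and 3 was 235994, 186411 and 216025, and on CoCl2 arrays 1, 2 and 3 it was 128894, 139645 and 142595. Before any scaling, each CoCl2 array was therefore dimmer at Tuba1b than each control. Relative to the 75th percentile of its array, the log2 Tuba1b level was 9.10, 8.93 and 8.58 in the controls and 8.57, 8.26 and 8.43 in the CoCl2 cultures. The groups did not overlap, although control 3 and CoCl2 replicate 1 were only 0.018 apart. The mean was 8.87 ± 0.26 (SD, n = 3) in controls and 8.42 ± 0.15 (SD, n = 3) after CoCl2. The log2 fold change was -0.45 (SE 0.18, 95% interval -0.87 to -0.03), and it did not pass in limma with Benjamini-Hochberg adjustment over 34839 tested probes (adjusted p = 0.0714, unadjusted p = 0.0376).

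Quantile normalization separated the groups at Tuba1b widely. Its log2 level was 17.74, 17.74 and 17.80 in the controls, compared with 16.88, 17.04 and 16.97 after CoCl2, in replicate order. The lowest control stood 0.70 above the highest CoCl2 array. On this scale the SD was 0.032 among controls and 0.083 among CoCl2 arrays. The control SD was 0.26 with the 75th-percentile shift and 0.17 unscaled. Quantile normalization sets values by rank, and 17 to 22 tested probes were brighter than Tuba1b on the controls. Such similar ranks receive similar values, so the small control SD is no measure of how the cultures vary. The quantile log2 fold change, whose SE rests in part on that SD, was -0.80 (SE 0.11, 95% interval -1.07 to -0.53, limma adjusted p = 0.00174). Over all alternatives the adjusted p of Tuba1b ran from 0.00174 to 0.600.

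Actb spread widely between control arrays, whose log2 levels spanned 0.89 relative to the 75th percentile. Each control had a different scan start, so spread between cultures cannot be told apart from that between slides or scan days. Its mean spot intensity on control arrays 1, 2 and 3 was 26232, 14121 and 18540, and on CoCl2 arrays 1, 2 and 3 it was 11871, 13591 and 13082. Control 1 was brightest by a wide margin, and all CoCl2 arrays were dimmer than all controls in these unscaled intensities. Relative to the 75th percentile, the log2 Actb level was 5.93, 5.21 and 5.04 in the controls and 5.13, 4.90 and 4.98 after CoCl2. Here the groups overlapped, since CoCl2 replicate 1 lay above control 3. The means were 5.39 ± 0.47 (SD, n = 3) in controls and 5.00 ± 0.11 (SD, n = 3) after CoCl2. The log2 fold change of -0.39 (SE 0.24, 95% interval -0.96 to 0.17) did not pass in limma (adjusted p = 0.213).

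On the quantile scale Actb stood at 14.60, 14.07 and 14.02 in the controls and at 13.65, 13.66 and 13.63 after CoCl2. Every CoCl2 array then lay below every control, with a gap of 0.36. The log2 fold change was -0.58 (SE 0.18, 95% interval -1.01 to -0.16, limma adjusted p = 0.0336). This call was lost when control 2 (adjusted p = 0.0540) or any of CoCl2 replicates 1 to 3 (adjusted p = 0.0612, 0.0621 and 0.103) was left out. Over all alternatives the adjusted p of Actb ran from 0.0241 to 0.936.

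**Figure D1:**
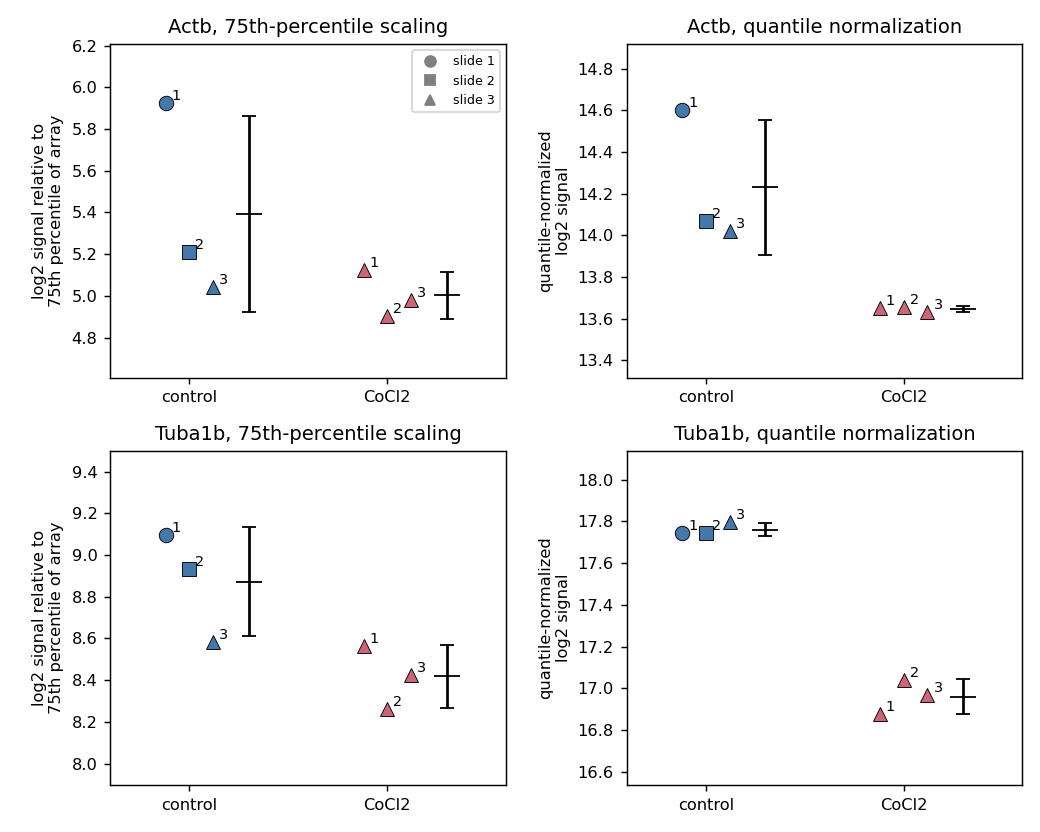
Log2 level of Actb (upper row) and Tuba1b (lower row) on each array, relative to the array's 75th percentile (left) and after quantile normalization (right). Points are arrays, numbered by replicate and shaped by slide, and the bars are group means ± SD of 3 arrays. Each panel spans 1.6 log2 units. Tuba1b separates by 0.018 on the left and by 0.70 on the right, and control 1 stands high for Actb on both scales.

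The calls for Actb and Tuba1b are read against those over the whole array. Of the tested probes 47.6% passed in either direction with the 75th-percentile shift, and 22.4% passed as lower after CoCl2. Neither member was among them. Fitting slide as a block lowered the calls in either direction from 16580 to 5450 probes, without either member. With quantile normalization 23.4% of probes passed as lower, and both members were among them. A full separation with every CoCl2 array below every control was found for 27.5% of probes with the 75th-percentile shift, where Tuba1b had it and Actb did not, and for 28.3% after quantile normalization, where both had it. Such separations are common on these arrays and do not set Actb or Tuba1b apart. With 3 arrays against 3, an exact two-sided permutation test of 1 gene cannot go below p = 0.10, the value reached by both genes on the quantile scale and by Tuba1b on the 75th-percentile scale, where Actb was at p = 0.20.

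Across the 20 spots of a gene, the CoCl2 mean was below the control mean at every printed position for both genes. For Tuba1b the log2 difference between groups ranged from -0.59 to -0.36 over the 20 positions, with a median of -0.44. For Actb it ranged from -0.57 to -0.09, with a median of -0.39. Spots of 1 array share a sample and are not replicates, so this speaks for the reading of the array alone. The standard error of the spot mean was 0.0043 to 0.0079 for Actb and 0.0032 to 0.024 for Tuba1b on the log2 scale, well under the spread between arrays. The coefficient of variation among the spots of an array was 1.29% to 2.35% for Actb. For Tuba1b it was 0.940% to 2.33% on 5 arrays and 7.65% on control 1, where spots ran from 8.96 to 9.27 relative to the 75th percentile. The median over 14 panel genes was also highest on control 1, at 3.56% against 1.56% to 1.78% on the other arrays. No more than 3 of the 20 spots of either gene were left out for an outlier flag on any array. All 20 spots of both genes were well above background on every array, and the brightest spot of either reached 34.2% of the saturation value.

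**Figure D2:**
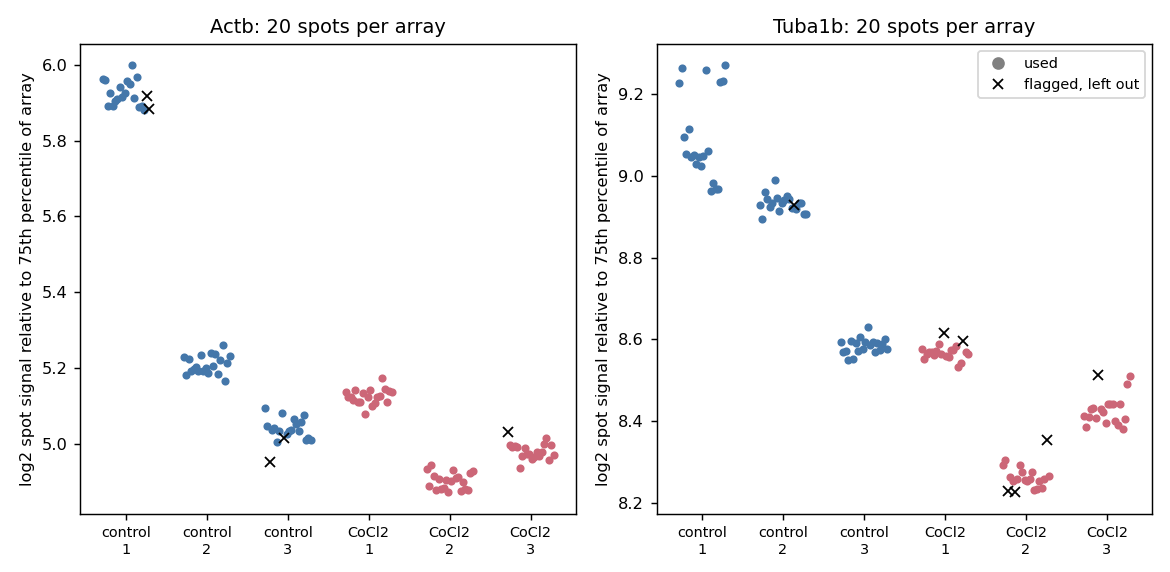
Log2 signal of the 20 spots of Actb (left) and Tuba1b (right) on each array, relative to the array's 75th percentile. Circles are spots that were used and crosses are spots left out for an outlier flag. Used spots span 0.31 log2 units for Tuba1b on control 1 and at most 0.13 elsewhere. Spots of some arrays overlap. For Tuba1b they run from 8.55 to 8.63 on control 3 and from 8.53 to 8.59 on CoCl2 replicate 1.

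The place of each gene in the brightness order of its own array does not depend on a shift or on quantile normalization. Quantile normalization assigns its values by that order, so the ranks largely restate the quantile result and are no separate support. On control arrays 1 to 3, 22, 22 and 17 of the tested probes were brighter than Tuba1b. On CoCl2 arrays 1 to 3, 291, 218 and 250 were brighter. All CoCl2 arrays thus ranked Tuba1b lower than all controls (exact permutation p = 0.10, the smallest possible), including control 3, which ranked it highest of all 6 arrays. For Actb, 2003, 2602 and 2667 probes were brighter on the controls and 3132, 3124 and 3157 on the CoCl2 arrays. The groups did not overlap here either (exact permutation p = 0.10). A probe can lose rank because its own signal falls or because that of others rises, and the rank does not distinguish these.

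The scales differ most among bright probes. In the brightest 10% of the tested probes (3484), which hold both members, the median log2 fold change was 0.33 with the 75th-percentile shift and 0.04 after quantile normalization. With the shift 29.1% of those probes were lower after CoCl2, Actb and Tuba1b among them. Within this brightest 10%, 13.7% of probes had a lower log2 fold change than Tuba1b with the shift and 11.3% after quantile normalization. For Actb the shares were 15.2% and 15.9%. Tuba1b lay in the brightest 1% (348 probes), whose median was 0.34 with the shift. On each scale 6 of those 348 probes had a lower log2 fold change than Tuba1b. The median over all tested probes was 0.11 with the 75th-percentile shift and 0.07 after quantile normalization, so both members lay below the median on each scale.

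**Figure D3:**
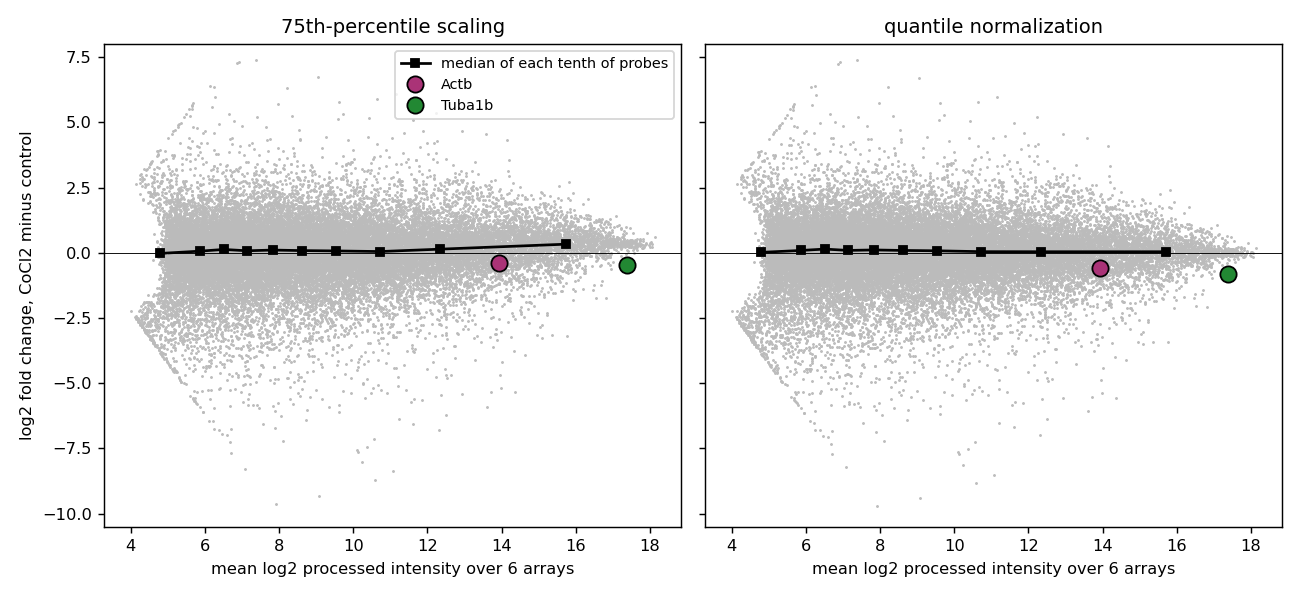
Log2 fold change (CoCl2 minus control) of the 34839 tested probes against their mean log2 intensity over 6 arrays, with the 75th-percentile shift (left) and after quantile normalization (right). Squares join the medians of 10 classes of equal size by intensity, and the coloured circles are Actb and Tuba1b. The median of the brightest class is 0.33 on the left and 0.04 on the right, and both genes lie below it.

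Shifting each array by the mean of the other 12 measured panel genes made the difference of both genes smaller. That mean includes Gusb, which was at -2.98 with the 75th-percentile shift, whereas the median of the 12 genes was 0.06. The smaller difference therefore depends on which panel genes enter the mean. With the panel shift Actb was at -0.25 (SE 0.24, limma adjusted p = 0.397) and Tuba1b at -0.31 (SE 0.17, limma adjusted p = 0.148). On that scale 18.0% of probes passed as lower. That shift moved the median of all tested probes to 0.25, and the calls to 11127 higher against 6287 lower, from 8763 and 7817 with the 75th percentile. Without scaling between arrays the median was -0.07, with 4728 probes higher and 7082 lower, and Actb was at -0.57 and Tuba1b at -0.63 (limma adjusted p = 0.154 and 0.0869). Under normexp background correction 21.5% of probes passed as lower, and Tuba1b was one of them at -0.47 (limma adjusted p = 0.0307), while Actb at -0.39 was not (limma adjusted p = 0.151).

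Controls 1 and 2 had scan starts of their own on a first scan day. Control 3 and the 3 CoCl2 arrays shared a scan start on a second day and were taken as sharing a slide, numbered 3. Within slide 3 the size of the difference turned on the scale. Tuba1b in the CoCl2 arrays differed from control 3 by -0.17 with the 75th-percentile shift (adjusted p = 0.555 in limma, fitting slide as a block) and by -0.84 after quantile normalization (limma adjusted p = 0.0430). Actb differed by -0.04 and by -0.37 on these scales (limma adjusted p = 0.883 and 0.131). In unscaled log2 intensity the values were -0.66 for Tuba1b and -0.53 for Actb, against -0.22 and -0.10 under normexp and -0.13 and -0.0055 relative to the other panel genes. Control 3 was the lowest control for Tuba1b relative to its 75th percentile and the highest after quantile normalization. Its 75th percentile was the highest of the 6 arrays, at an intensity of 563 against 340 to 455 on the others. The blocked fits set 1 control against 3 CoCl2 arrays, and their spread among samples comes from the CoCl2 arrays alone, with 2 residual degrees of freedom. Their p-values therefore say nothing of how control cultures vary, and the part of the slide in the pooled values was not tested.

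**Figure D4:**
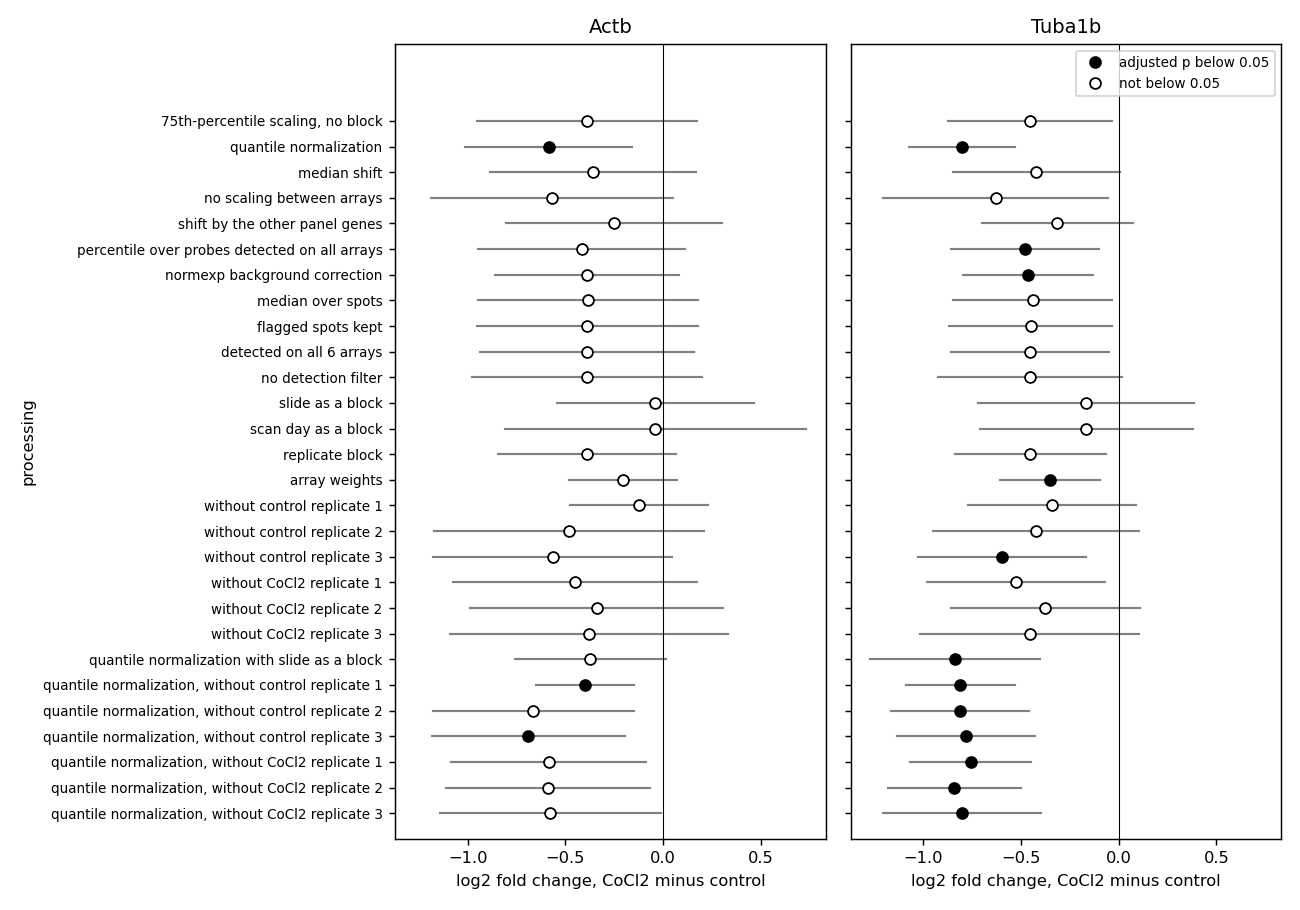
Log2 fold change of Actb (left) and Tuba1b (right) with 95% intervals under each way of processing the arrays; filled circles passed an adjusted p of 0.05 in limma. All values lie below 0, from -0.69 to -0.04 for Actb and from -0.84 to -0.17 for Tuba1b.

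Whether Actb and Tuba1b responded unequally could not be settled with these arrays. The log2 difference between them on the same array, which no shift of that array alters, was -3.17, -3.72 and -3.54 in the controls, compared with -3.44, -3.36 and -3.45 after CoCl2. These values compare probes of different sequence, so their size is no ratio of transcripts. The CoCl2 arrays lay within the range of the controls. The mean changed by 0.06 (control SD 0.28, CoCl2 SD 0.048, exact permutation p = 0.70, in a test that cannot go below 0.10), less than the spread of the controls. After quantile normalization it changed by 0.22 (exact permutation p = 0.40). Without control 1 the change was also 0.22, with the groups fully separated (exact permutation p = 0.10, the smallest possible), and without control 2 the sign turned, to -0.06. The controls spanned 0.55 on this measure, with control 1 high in Actb relative to Tuba1b.

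Ratios of the other panel genes to each member were compared next. Both members are in use as reference genes, and such ratios do not depend on a shift of the array. Of the 13 other measured panel genes, 11 were higher after CoCl2 relative to Tuba1b and 10 relative to Actb, against 7 relative to the 75th percentile. The groups were fully separated upward for 8 genes relative to Tuba1b and for 7 relative to Actb, and downward for 1 in each case, Gusb. No share over all probes is given for such separations of ratios, so they do not set the panel genes apart. After quantile normalization 11 and 10 genes were higher, with the same signs for all 13 in both cases, and within slide 3 the numbers were 9 and 8. The comparisons share their denominators, and a lower value of a member raises every ratio to it. With the 75th-percentile shift, 13.7% of the brightest 10% of tested probes had a lower log2 fold change than Tuba1b, and 15.2% than Actb. Rises relative to either member were thus common among bright probes, and the counts are no result about the panel genes themselves. The dimmer panel genes G6pd2, Gk, Gusb, Nono and Tbp lay outside that class, so its shares are no background for them. Of 25 pairs tested, 17 reached the smallest p of the exact permutation test, 0.10, which is 0.147 after Benjamini-Hochberg adjustment, so no pair could pass a threshold of 0.05.

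Some of these ratios to Tuba1b had very little scatter, and the 3 with the smallest pooled SD are given, a choice made after their values were seen. Gapdh encodes a glycolytic enzyme, and its log2 difference from Tuba1b was 0.03, 0.02 and -0.06 in controls 1 to 3 and 0.89, 0.88 and 0.91 after CoCl2. The change of 0.90 compares with an SD of 0.051 among controls and 0.014 among CoCl2 arrays. Ppia, which encodes the proline isomerase cyclophilin A, was at -0.11, -0.0079 and 0.03 relative to Tuba1b in controls and at 0.44, 0.41 and 0.43 after CoCl2, a change of 0.46. Tfrc, the receptor that takes up transferrin-bound iron, was at -1.40, -1.42 and -1.38 in controls and -0.90, -0.75 and -0.83 after CoCl2, a change of 0.57. The groups did not overlap for any of the 3 genes, and within slide 3 the changes were 0.95, 0.39 and 0.55. Since these genes were picked for low scatter, other ratios to Tuba1b had more of it, up to the 0.49 pooled SD of Tbp, which changed by 0.16. A ratio shows unequal change and does not tell which of its genes moved.

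Relative to Actb the same genes changed by 0.83 (Gapdh), 0.39 (Ppia) and 0.51 (Tfrc). The scatter was wider, with pooled SDs of 0.20, 0.25 and 0.20 against 0.037, 0.053 and 0.058 relative to Tuba1b. Control 1 was the lowest of the controls in each of these ratios to Actb. Among 14 measured panel genes Actb had the largest SD among controls (0.47) and was 11th of 14 among CoCl2 arrays (0.11). Tuba1b was 4th among controls. The CoCl2 arrays shared a scan start and the controls did not, so slide and treatment cannot be told apart in these SDs. Ranked by the SD over all 6 arrays, Actb (0.37) was 6th and Tuba1b (0.31) 9th of the 14 with the 75th-percentile shift, whereas Tuba1b (0.44) was 4th and Actb (0.38) 5th after quantile normalization.

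**Figure D5:**
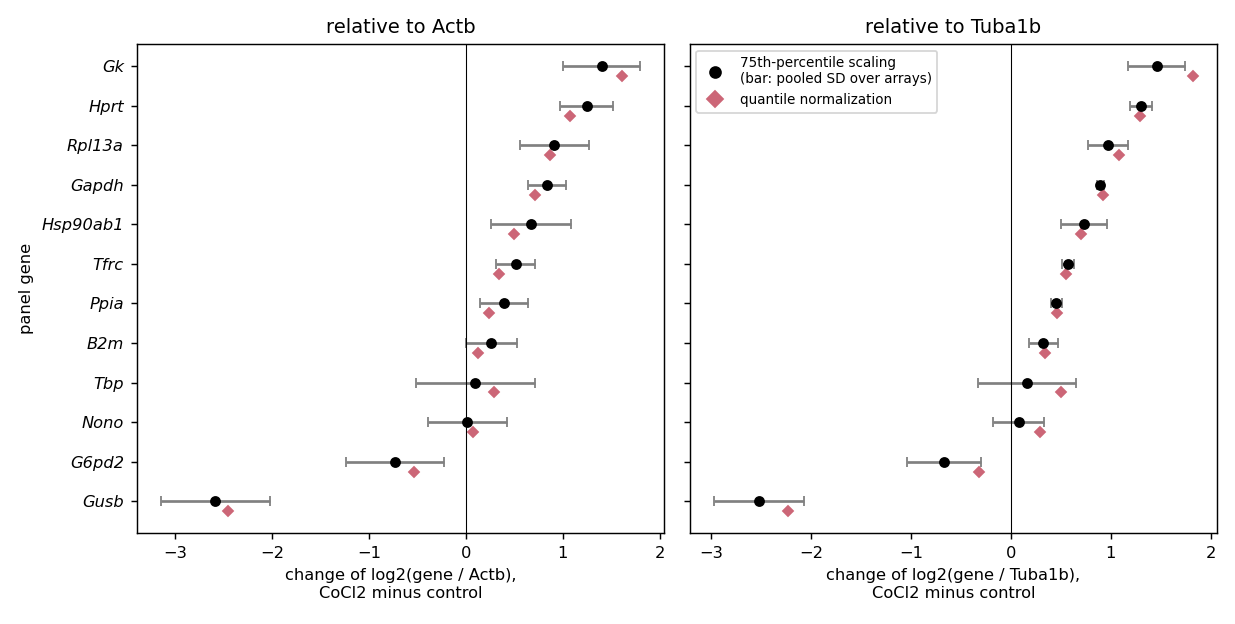
Change of the log2 ratio of each of 12 panel genes to Actb (left) and to Tuba1b (right), CoCl2 minus control. Circles use the 75th-percentile shift, with bars for the pooled SD over 3 arrays per group, and diamonds use quantile normalization. Gapdh, Ppia and Tfrc have the shortest bars relative to Tuba1b, at changes of 0.90, 0.46 and 0.57.

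Among all 15 panel genes 14 were measured. In order of log2 fold change from the lowest, Tuba1b was the third and Actb the fourth on both scales, behind Gusb and G6pd2. With slide as a block on the 75th-percentile scale, Nono (-0.35) and Tbp (-0.35) also lay below Tuba1b (-0.17) and Actb (-0.04). Tuba1b, Actb and the next gene, Nono at -0.38 (SE 0.14) with the 75th-percentile shift, did not differ beyond their standard errors. Of the 12 panel genes other than the members, 7 were above 0 with the 75th-percentile shift and 4 after quantile normalization, with medians of 0.06 and -0.27. The panel had 2 lower calls with the shift, neither of them a member, and 6 after quantile normalization, both members included.

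Across the 6 arrays the panel gene most like Actb in its pattern was Tuba1b, and the reverse held as well, with the 75th-percentile shift (Pearson r = 0.87). After quantile normalization their r was 0.82, and Tuba1b was then closer to Gusb (r = 0.99) and B2m (r = 0.88) than to Actb. Next on the shifted scale came B2m, at r = 0.68 with Actb and 0.73 with Tuba1b. The panel gene after it was Ppia for Actb (r = 0.58) and Gusb for Tuba1b (r = 0.73). Among 260 panel and lincRNA-named probes detected on all arrays, mouselincRNA1437+_P1 was most like Actb on the shifted scale (r = 0.98, and 0.93 after quantile normalization). The probe most like Tuba1b was humanlincRNA2438+_P1 (r = 0.98, and 0.97 after quantile normalization). The next for Actb were humanlincRNA0459+_P1 and mouselincRNA0995+_P1 (both r = 0.95, and 0.82 and 0.91 after quantile normalization). For Tuba1b they were humanlincRNA0459+_P1 (r = 0.89) and humanlincRNA1114+_P1 (r = 0.87), whose r dropped to 0.46 and 0.48 after quantile normalization. These correlations are over 6 arrays that fall into 2 groups and share their scaling, so they describe these arrays alone. On the shifted scale the order of the controls, with 1 highest and 3 lowest, was shared by both genes.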

How the data were processed

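The authors deposited scanner output of Feature Extraction (Agilent, 11.0.1.1), whose processed intensity per spot is already background-subtracted, per the file headers, and carries no scaling between arrays. The authors' deposited value table is on the log2 scale and holds 60804 probes but neither Actb nor Tuba1b, so it served only for the count of changed probes. Flags of the deposited files removed outlier spots. Spots of a probe were averaged as log2 processed intensity, and each array was shifted by its 75th percentile over 60915 non-control probes. A probe was tested if at least 50% of its spots were well above background on at least 3 arrays, which left 34839. CoCl2 was compared with control by the two-sided moderated test of limma 3.58.1 (R 4.3.3); p-values were adjusted after Benjamini and Hochberg at a threshold of 0.05; the fit was tested on simulated data. Fold changes are CoCl2 minus control. Single values were compared by exact permutation tests. The normexp alternative (offset 50) used median spot intensity. The 3 arrays per group limit the precision. Symbols and the promoter windows come from RefSeq tables of GRCm38.p6. For the probes these tables were used for names alone, since the design is annotated to mm9. Named genes were the members, the panel, and the 3 probes with the most similar pattern. The genes, lists and alternatives were chosen with earlier results of these data known; the quantile fits with slide blocked or 1 array left out, and the values within slide 3, were added after the data were seen.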

Additional observations from a re-analysis of the deposited data

How the results depend on the processing

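Both genes stayed lower after CoCl2 under all 27 alternatives, and the side of the threshold changed for 12 of them in Tuba1b and 3 in Actb. Tuba1b newly passed after quantile normalization (-0.80), with the percentile over probes detected on all arrays (-0.48), under normexp (-0.47), with array weights (-0.35), and in the quantile scale with slide as a block (-0.84, where 1 control is compared and the spread is that of the CoCl2 arrays). Leaving out 1 array gave -0.60 to -0.34 for Tuba1b, which passed only without control replicate 3 (limma adjusted p = 0.0439), and -0.84 to -0.76 in the quantile scale, where it passed each time (without controls 1, 2 and 3, -0.810, -0.810 and -0.782; without CoCl2 replicates 1, 2 and 3, -0.758, -0.841 and -0.804). Actb newly passed after quantile normalization (-0.58). Leaving out 1 array gave -0.57 to -0.12 for Actb, the smallest without control replicate 1, and -0.69 to -0.40 in the quantile scale. The difference between the genes ranged from -0.0600 (without control replicate 2) to 0.22 (without control replicate 1). Changed probes numbered 16580, against 5450 with slide as a block, 7510 with scan day as a block and 25633 with array weights, and 11491 to 17538 with 1 array left out. The cause of these shifts was not tested. With the replicate block Actb was at -0.39 (limma adjusted p = 0.121) and Tuba1b at -0.45 (adjusted p = 0.0538), with 18765 changed probes and no changed call for either gene. Same-numbered arrays correlated in their deviations at r = 0.30, 0.36 and -0.03, and not every array correlated best with its own number, so the numbers were not taken as pairs. Keeping flagged spots, taking the median over spots or changing the detection filter moved no call of either gene.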
